A study of Homo sapiens with 6 samples.

Results

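Translation initiation and elongation factors were taken as all genes on the arrays whose platform symbol begins with EIF or EEF, leaving out the subunits of eIF2 and eIF2B and the kinases *EIF2AK3* and *EIF2AK4*. Of 9586 genes named by a probe set with 1 symbol, 42 met this rule, with 75 of the 16569 probe sets. A further 10 genes were measured and left out by the rule, and 7 probe sets that carry several symbols with an EIF or EEF symbol among them were not used, so that *EIF3C*, *EIF4A1* and *EEF1B2*, which are listed only there, and *EIF4E*, *EIF4A2* and *EIF5A* are not analysed here. HEK293T, a human line of embryonic kidney origin with the SV40 large T antigen, which makes USF1 protein of its own, was transiently transfected either with the USF1 coding region in the pcDNA4/HisMax expression vector or with the empty vector. The question was which genes respond, directly or indirectly, to over-expression of USF1, a transcription factor that binds E-boxes. Total RNA taken 48 hours later was measured on 3 Affymetrix arrays per group, called USF1 and Empty vector after their labels. Whether the 3 arrays of a group are of independent transfections is not stated, so p-values measure only how far these arrays differed, and that spread may be technical. The values are log2 RMA expression values of probe sets, each a group of probes for 1 transcript, and of several probe sets of a gene the brightest on average stands for it. A difference is USF1 minus Empty vector on the log2 scale, and a probe set was called where limma, a linear model that shares the spread between probe sets, gave a Benjamini-Hochberg adjusted p-value under 0.05 over all probe sets. In RNA of whole cultures, fewer transfected or living cells and less RNA per cell cannot be told apart.

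Translation of most mRNAs begins when the cap-binding protein eIF4E, held by the scaffold eIF4G, recruits the helicase eIF4A and the small ribosomal subunit with eIF3. eIF1, eIF1A and eIF5 take part in choosing the start codon, and eIF5B joins the large subunit. During elongation eEF1A brings aminoacyl-tRNA to the ribosome and eEF2 moves the ribosome along the mRNA, a step that the kinase *EEF2K* slows by phosphorylating eEF2.

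The medians of the 6 arrays lay between 5.88 and 6.0 on the log2 scale. Empty vector replicate 1 stood apart. Its 5' rRNA control probe set read 2.95, against 7.28 to 8.80 on the other arrays, and its 5' minus 3' difference of the GAPDH controls was -0.582, against -0.345 to -0.256 on the others. The 5' minus 3' difference of the actin controls was -1.34 and -1.04 in Empty vector replicates 1 and 2 and -0.681 to -0.493 on the other arrays. Where leaving out Empty vector replicate 1 changed the call of a translation gene, the value without it is given below, and the part of RNA quality in these values was not tested. The only probe set of USF1 itself read 4.76, 4.94 and 4.68 in USF1 and 4.37, 5.08 and 5.14 in Empty vector, a difference of -0.07 with an adjusted p-value of 0.836. Without Empty vector replicate 1 the difference was -0.32 with an adjusted p-value of 0.0786. Without each array in turn it ran from -0.32 to 0.07, so its sign was not stable, and it was called in none of these fits. Where its probes lie relative to the transfected coding region is unknown here, so it does not test the labels, and the study checked over-expression at the protein level by western blot. Of the HEK293T markers, 5 of 9 had a probe set in the table (*VIM*, *NEFM*, *NEFL*, *INA* and *SOX2*) and only *INA* was called, 0.39 lower in USF1 with an adjusted p-value of 0.024, a call that was lost without USF1 replicate 1 or 3 or Empty vector replicate 2 or 3, with adjusted p-values up to 0.108. None of the 7 fibroblast or endothelial, 6 blood cell and 3 liver markers had a probe set in the table.

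In the arrays labelled USF1, 4 translation factor genes rose and 1 fell. The genes that rose were *EIF4E3*, a cap-binding protein, *EIF3B* and *EIF3J*, subunits of eIF3, and *EEF2K*, the kinase of eEF2, and their differences lay between 0.33 and 0.54 on the log2 scale. The gene that fell was *EIF5A2*, a paralogue of the elongation factor eIF5A, by 0.44. These 5 of 42 members are 11.9% of them, and limma called 11.9% of all probe sets. By direction, 9.52% of the members were called higher, against 4.32% of all probe sets, and 2.38% lower, against 7.6%. With the median of every array set to 0, 6 members were called higher and 0 lower, against 1041 and 815 of all 16569 probe sets. The share of higher calls among all called probe sets went from 36.2% to 56.1%. After a further quantile normalization that share was 50.4%, with 5 members higher and 1 lower, against 976 and 959 of all probe sets. The USF1 arrays did not overlap the Empty vector arrays for 15 members (35.7%), against 36.1% of all probe sets. By the methods' t-test with unequal variances, 7 members (16.7%) had an unadjusted p-value under 0.05, against 20.6% of all probe sets.

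The differences of most members were small and above 0. Their median was 0.11 on the log2 scale, with a range from -0.44 to 0.62, and 30 of 42 (71.4%) lay above 0. Over all probe sets the median difference was -0.06 and 39.2% lay above 0. Of the members, 29 belong to the 25% of probe sets with the highest mean. Among these bright probe sets the median difference was -0.05 and 39.4% lay above 0. Among the 37 members that were not called, 26 lay above 0, the smallest adjusted p-value was 0.0609, and for 32 the 95% confidence interval of the difference stayed within 0.5 of 0. The 19 members with more than 1 probe set had the same sign in all of them in 15 cases, and 10 of the 75 probe sets were called.

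**Figure D1:**
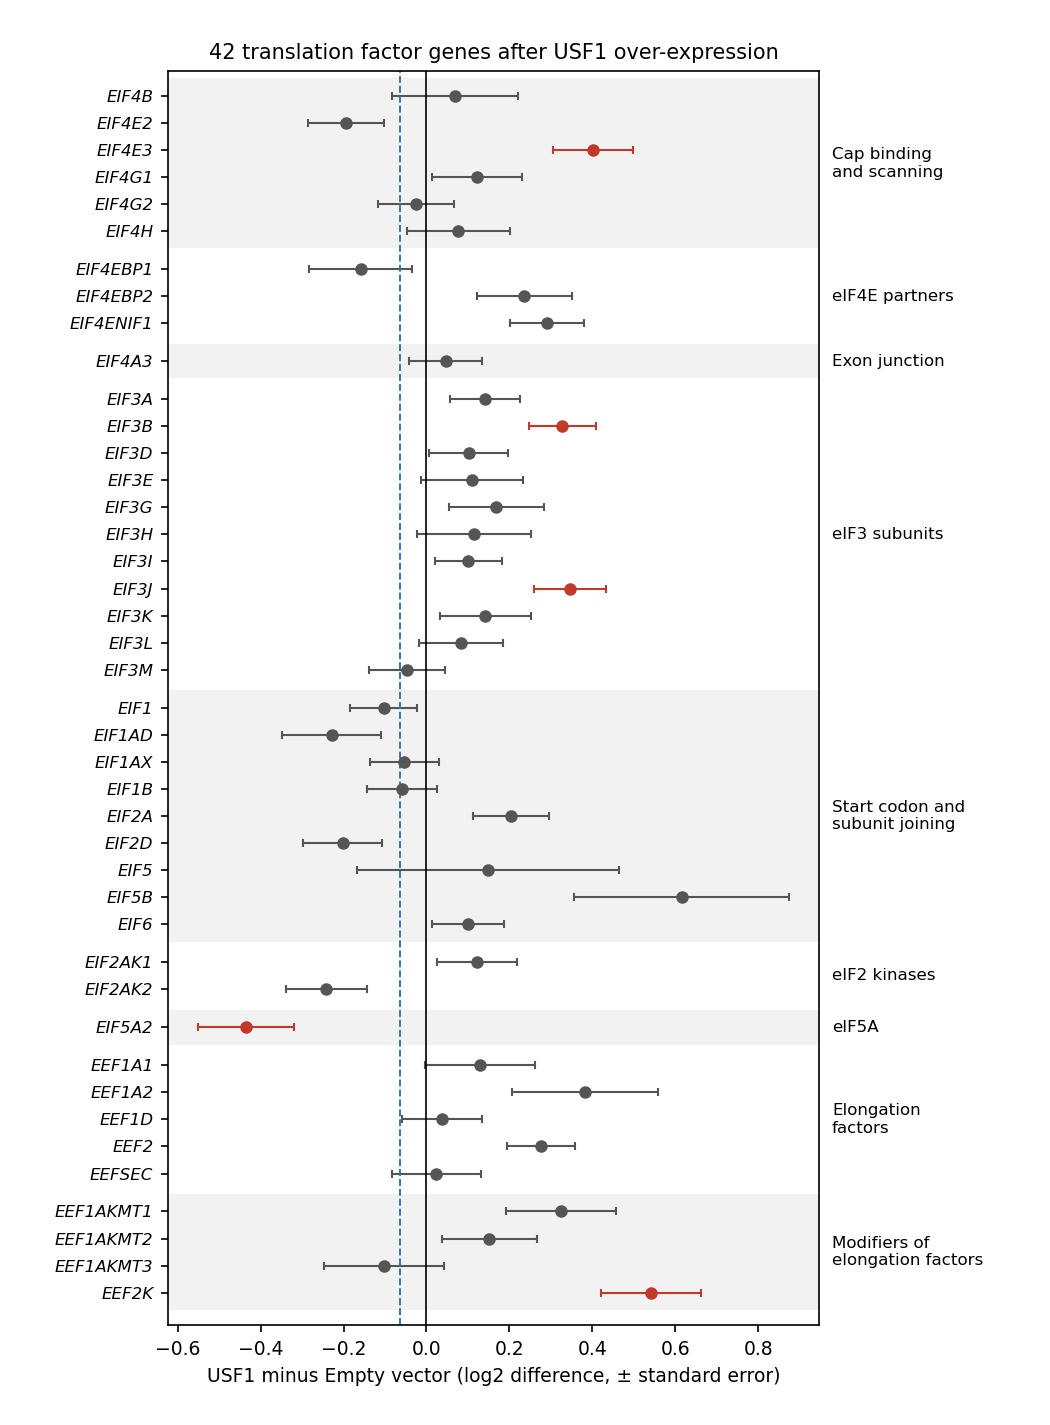
Difference between USF1 and Empty vector on the log2 scale for the 42 members, by role, with bars of ± 1 standard error from limma (n = 3 arrays per group). Red points passed an adjusted p-value of 0.05, grey points did not, and the dashed line marks the median of all probe sets at -0.06. Among 11 eIF3 subunits only *EIF3M* lies below 0, and *EIF5B*, the highest point, has a wide bar.

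Among the 6 measured factors of cap binding and scanning, *EIF4E3* rose and the other 5 did not pass the test. *EIF4E3*, a member of the eIF4E family, read 6.45, 6.29 and 6.32 in USF1 and 5.94, 6.08 and 5.84 in Empty vector. All USF1 arrays lay above all Empty vector arrays. The difference was 0.40 (standard error 0.0964, 95% confidence interval 0.18 to 0.62), a fold change of 1.32 with a limma adjusted p-value of 0.0334. Its other probe sets also rose. The next brightest read 5.73, 5.55 and 5.64 in USF1 and 5.36, 5.14 and 5.15 in Empty vector, a difference of 0.42 with an adjusted p-value of 0.0309 (0.0126 to 0.116 without 1 array). The dimmest read 5.16, 5.11 and 5.08 in USF1 and 4.46, 4.57 and 4.53 in Empty vector, a difference of 0.60 with an adjusted p-value of 0.00612. Only the dimmest was called without each of the 6 arrays in turn, with adjusted p-values from 0.00598 to 0.0397. The probe set that stands for the gene lost its call without USF1 replicate 1 or 3 or without Empty vector replicate 2 or 3, with adjusted p-values of 0.0579 to 0.124 and differences of 0.35 to 0.46.

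The paralogue *EIF4E2*, which also binds caps, lay lower in all 3 of its probe sets, by 0.17 to 0.37, with adjusted p-values of 0.1 to 0.189. Its dimmest probe set was called without USF1 replicate 2, with a difference of -0.48 and an adjusted p-value of 0.0454. *EIF4G1*, the scaffold of the cap-binding complex, differed by 0.12 with an adjusted p-value of 0.483. *EIF4B* and *EIF4H*, which assist the helicase, and the scaffold-like *EIF4G2* differed by -0.03 to 0.08. None of these had a call with all arrays, and *EIF4A3*, a helicase of the exon junction complex rather than of cap binding, differed by 0.05.

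No inhibitor or partner of eIF4E was called among 3 measured, with 1 at an unadjusted limma p-value under 0.05. The share of all probe sets under that unadjusted threshold is not given here, so this count and those below have no baseline. *EIF4EBP1*, a repressor that binds eIF4E unless it is phosphorylated by mTOR, read 9.49, 9.25 and 9.28 in USF1 and 9.73, 9.32 and 9.43 in Empty vector, a difference of -0.16 with a 95% confidence interval from -0.44 to 0.13 and an adjusted p-value of 0.42. Without Empty vector replicate 1 that difference was -0.041. *EIF4EBP2*, of the same family, differed by 0.24 with an adjusted p-value of 0.2. *EIF4ENIF1*, which carries eIF4E into the nucleus and into P-bodies, read 6.35, 6.26 and 6.30 in USF1 and 6.12, 6.0 and 5.92 in Empty vector. The groups did not overlap, and the difference of 0.29 (standard error 0.0892) had an adjusted p-value of 0.0664. Without Empty vector replicate 1, *EIF4ENIF1* was called with a difference of 0.35 and an adjusted p-value of 0.0409.

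Of the 11 measured subunits of eIF3, which links the mRNA to the small ribosomal subunit, *EIF3B* and *EIF3J* rose and 0 fell. The differences of the 11 had a median of 0.11 and ran from -0.05 for *EIF3M* to 0.35 for *EIF3J*, and 10 lay above 0. *EIF3B*, a scaffold subunit, read 8.94, 8.92 and 8.84 in USF1 and 8.58, 8.60 and 8.54 in Empty vector. The difference was 0.33 (standard error 0.081, 95% confidence interval 0.14 to 0.51), a fold change of 1.25 with an adjusted p-value of 0.0364. The other probe sets of *EIF3B* rose by 0.40 and 0.41 with adjusted p-values of 0.0228 and 0.0361 (0.0203 to 0.0931 and 0.0144 to 0.134 without 1 array), and in all 3 probe sets every USF1 array lay above every Empty vector array. By their Affymetrix suffix, the brighter probe sets of *EIF3B* hold probes that can match other transcripts. *EIF3J*, a loosely bound subunit, read 8.41, 8.43 and 8.50 in USF1 and 8.19, 8.11 and 8.01 in Empty vector. The groups lay apart by 0.35 (standard error 0.0866, 95% confidence interval 0.15 to 0.54), a fold change of 1.27 with an adjusted p-value of 0.0379. Its other probe set did not overlap between the groups either but differed by 0.17 with an adjusted p-value of 0.236.

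Of the fits that left out 1 array, both eIF3 calls were kept only in the one without Empty vector replicate 1. Without each of the other 5 arrays in turn the adjusted p-value was 0.0601 to 0.13 for *EIF3B* and 0.0562 to 0.15 for *EIF3J*, with differences of 0.31 to 0.36 and 0.30 to 0.36. The other 9 subunits differed by at most 0.17. *EIF3A*, the largest scaffold subunit, read 9.78, 9.79 and 9.80 in USF1 and 9.70, 9.69 and 9.55 in Empty vector, a difference of 0.14 with an adjusted p-value of 0.293, and its groups did not overlap.

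**Figure D2:**
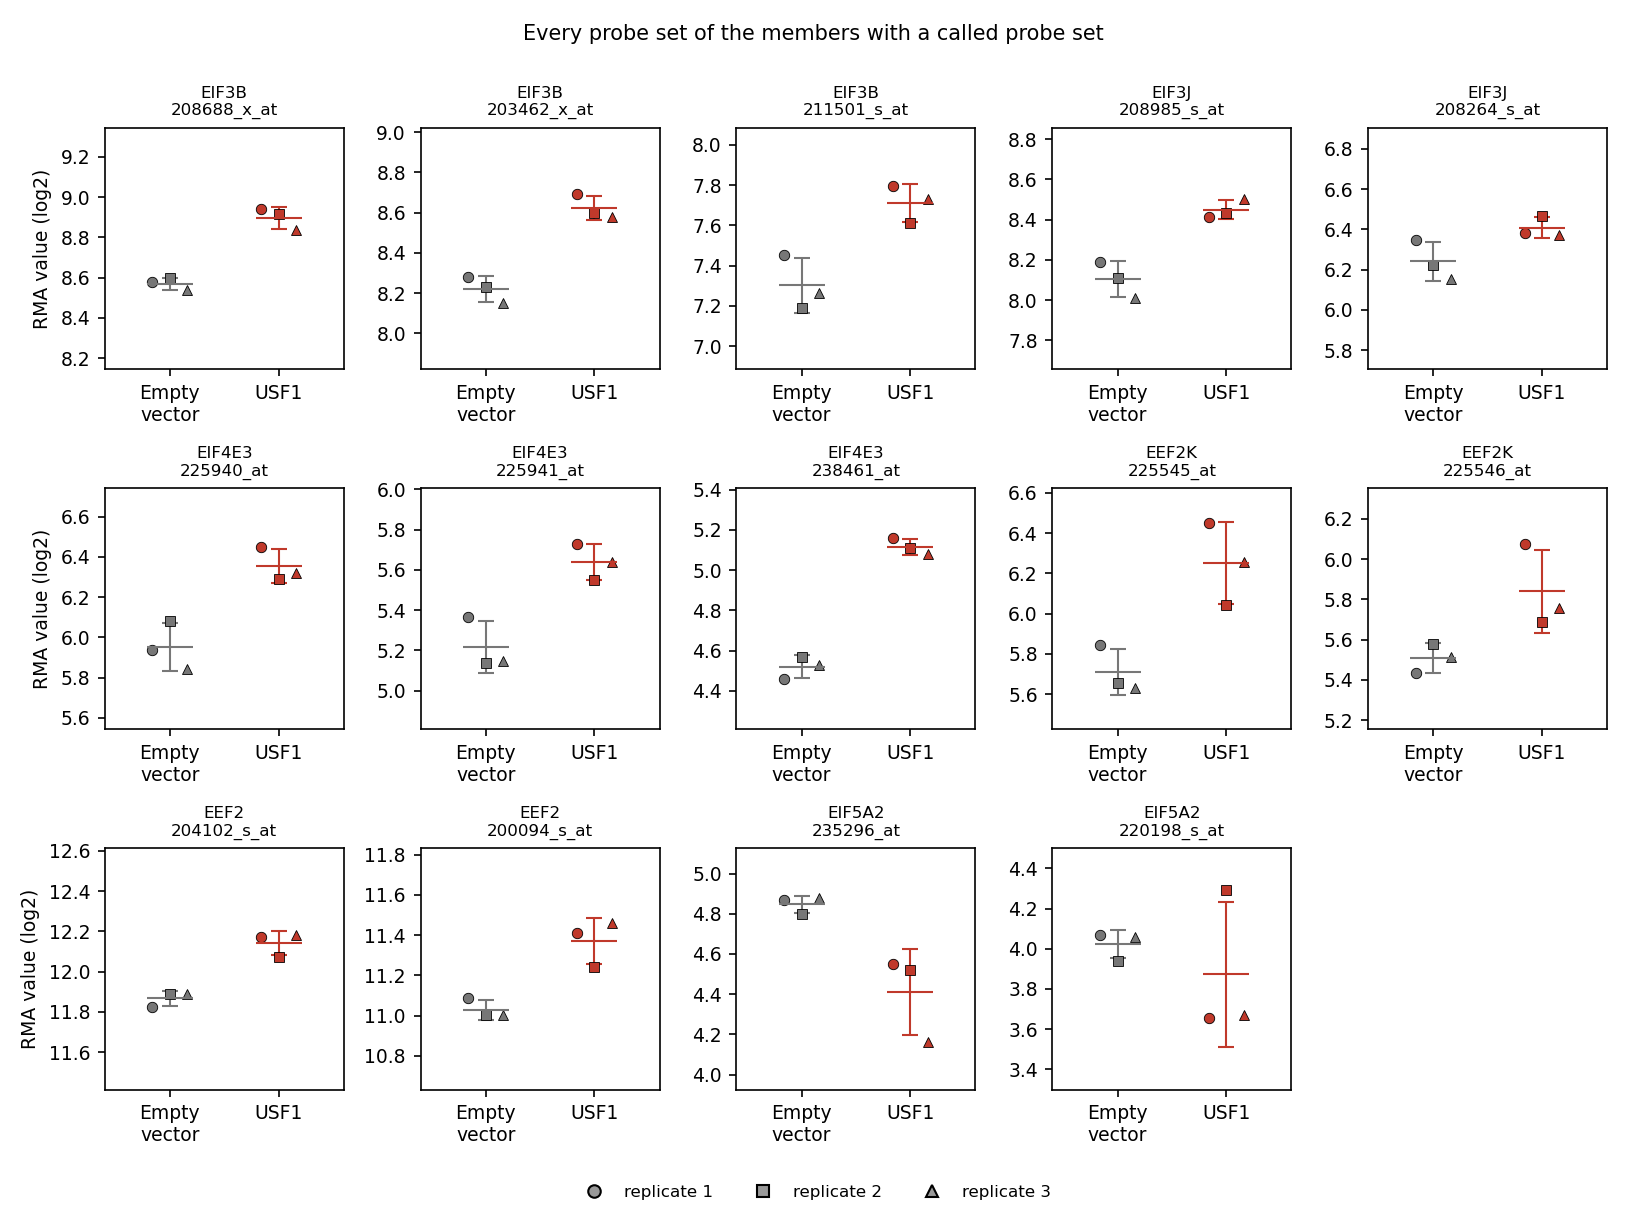
Log2 RMA value on each array for every probe set of the 6 members with at least 1 called probe set. Circles, squares and triangles are replicates 1, 2 and 3, the horizontal line is the mean, the bar ± 1 SD (n = 3), and the axes of the panels differ. In all 3 probe sets of *EIF3B* and of *EIF4E3* the USF1 arrays lie above the Empty vector arrays, whereas the dimmer probe set of *EIF5A2* overlaps.

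None of the 9 measured factors of start codon selection and subunit joining was called, with 4 differences above 0, 5 below, a median of -0.05 and 1 gene (*EIF5B*) at an unadjusted p-value under 0.05. *EIF1*, which guards start codon choice, lay lower in all 5 of its probe sets, by 0.10 to 0.26, with adjusted p-values of 0.108 to 0.419. *EIF6*, which keeps the large subunit from joining early, differed by 0.10 with an adjusted p-value of 0.462. *EIF5B*, the GTPase of subunit joining, read 7.87, 7.93 and 7.68 in USF1 and 6.51, 7.66 and 7.45 in Empty vector. Empty vector replicate 1 lay 0.939 below the next array of its group. The difference of 0.62 was the largest among members, with a standard error of 0.259 and an adjusted p-value of 0.147, and without that array it was 0.27. *EIF5*, which activates GTP hydrolysis by eIF2, read 9.82, 10.34 and 9.79 in USF1 and 9.01, 10.24 and 10.25 in Empty vector. Its difference of 0.15 (standard error 0.317) had an adjusted p-value of 0.784 and became -0.26 without Empty vector replicate 1, and its other 4 probe sets differed by -0.20 to -0.04. Of those 4, 1 was called without USF1 replicate 2, with a difference of -0.37 and an adjusted p-value of 0.0435.

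Empty vector replicate 1 lay at least 0.5 below both other arrays of its group in 5 of 75 member probe sets, against 728 (4.39%) of all probe sets. These belong to 4 genes. The dimmer probe set of *EIF4G1* read 4.77 there and 6.05 and 6.13 in the other Empty vector arrays, with 6.23, 6.23 and 6.28 in USF1. Its difference was 0.60 with all arrays and 0.16 without that one. The dimmer probe set of *EIF1AX*, a scanning factor, read 6.95 there and 7.90 and 7.67 in the others, and its difference went from 0.24 to -0.04. The dimmest probe set of *EIF5B* read 3.56 there and 4.55 and 4.38 in the others, against 4.78, 4.80 and 4.86 in USF1. It differed by 0.65 with an adjusted p-value of 0.0907, and by 0.35 with an adjusted p-value of 0.0484 without that array. In each of these genes at least 1 other probe set did not show the low value. No other array lay so low in a member probe set. USF1 replicate 2 lay at least 0.5 above both others of its group in 3 member probe sets, of *EIF5* and *EIF5A2*. The spread of members within groups was largest for *EIF5*, with an SD of 0.713 in Empty vector and 0.31 in USF1, against medians over the members of 0.104 and 0.123.

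**Figure D3:**
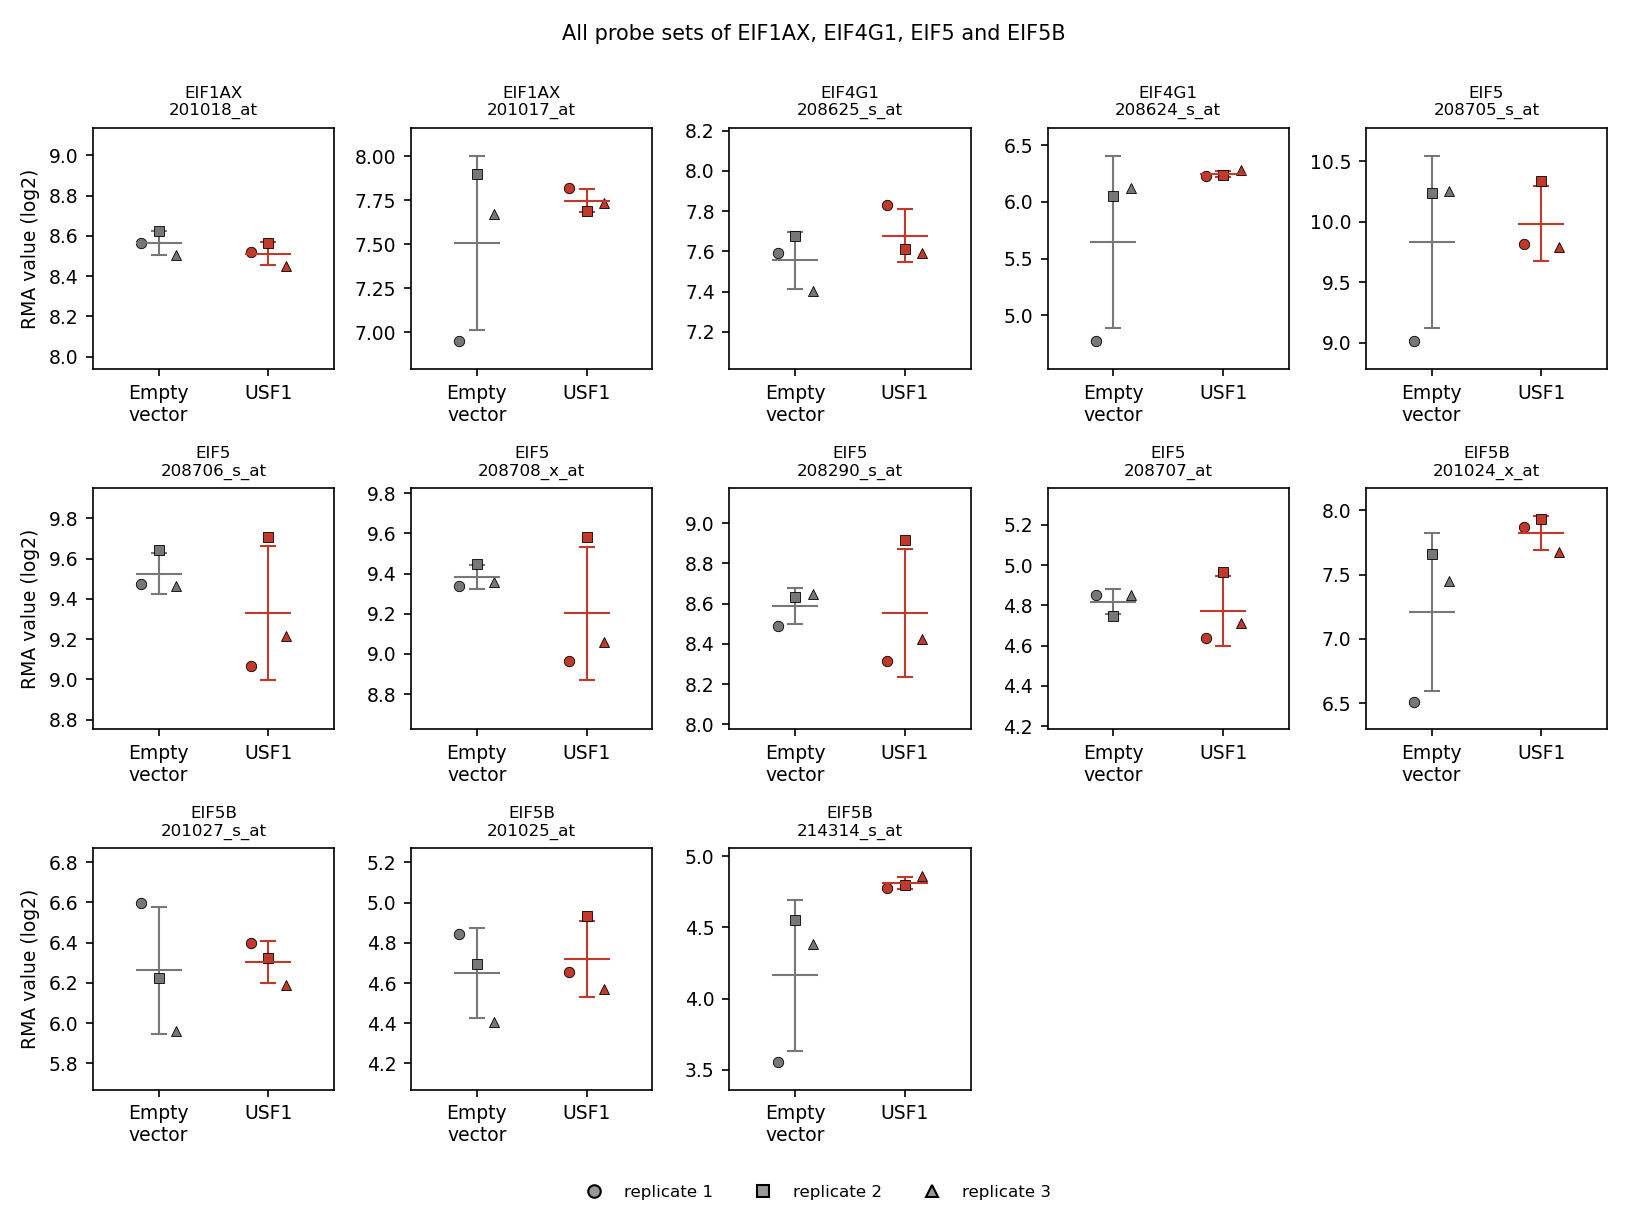
Log2 RMA value on each array for all probe sets of the 4 members in which Empty vector replicate 1 lay at least 0.5 below the other Empty vector arrays in at least 1 probe set. Circles, squares and triangles are replicates 1, 2 and 3, the line is the mean, the bar ± 1 SD (n = 3), and the axes of the panels differ. The grey circle is far below the other grey points in 5 panels, and other probe sets of the same genes do not show this.

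Replicate 2 was the lowest array in both groups for 15 of 42 members (35.7%), against 15.8% of all probe sets. Of the eIF3 subunits 7 of 11 (63.6%) had this order, and they were *EIF3D*, *EIF3E*, *EIF3G*, *EIF3H*, *EIF3I*, *EIF3K* and *EIF3L*. The sources used here do not say what the arrays of a replicate number share.

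Of the eIF2 alpha kinases that the rule kept, which shut down initiation under stress, neither was called, and 1 (*EIF2AK2*) had an unadjusted p-value under 0.05. *EIF2AK2*, the kinase activated by double-stranded RNA, read 6.52, 6.41 and 6.57 in USF1 and 6.81, 6.83 and 6.59 in Empty vector. The groups did not overlap, and the difference of -0.24 (standard error 0.0984) had an adjusted p-value of 0.137. Its other probe set differed by 0.03. *EIF2AK1*, the kinase regulated by heme, differed by 0.12 with an adjusted p-value of 0.424.

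*EIF5A2*, the only measured gene of the eIF5A family, fell. The protein carries hypusine and helps ribosomes past difficult peptide bonds. Its probe set read 4.55, 4.52 and 4.16 in USF1 and 4.87, 4.80 and 4.88 in Empty vector. These values are dim, below the medians of the arrays, and the probe set is among the 25% with the lowest mean. All USF1 arrays were lower, by 0.44 on average (standard error 0.116, 95% confidence interval of the difference -0.70 to -0.17, adjusted p-value 0.0454). In its other, dimmer probe set the groups overlapped and the difference was -0.15 with an adjusted p-value of 0.571. There USF1 replicate 2 lay 0.617 above the next array of its group. Without it that probe set was called, with a difference of -0.36 and an adjusted p-value of 0.0457. The call of the brighter probe set held without USF1 replicate 2, at 0.0485. It was lost without each of the other 5 arrays, with adjusted p-values of 0.0559 to 0.137 and differences of -0.50 to -0.31. It was also lost with the median of every array set to 0. The RefSeq promoter of *EIF5A2* (GRCh38.p14, minus strand, 250 bases before to 50 after the transcript start) holds the E-box CACGTG at 2 places, with centres at -184 and -159 bases from the start, at chr3:170908807-170908836 and chr3:170908782-170908811. They are shown because the E-box is the sequence that USF1 binds, with the motif in capitals.
EIF5A2 distal: actaatccgcagCACGTGgggttgccaggg
EIF5A2 proximal: cagggcgctcttCACGTGactgggcggagc

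All 5 measured elongation factors lay above 0, by 0.02 to 0.38, and the probe sets that stand for them were not called, with 1 (*EEF2*) at an unadjusted p-value under 0.05. *EEF2*, the translocase, read 12.17, 12.07 and 12.18 in USF1 and 11.82, 11.89 and 11.89 in Empty vector. The groups did not overlap, and the difference of 0.28 (standard error 0.0821, 95% confidence interval 0.09 to 0.46) had an adjusted p-value of 0.0609. Its other probe set read 11.41, 11.24 and 11.46 in USF1 and 11.09, 11.00 and 11.00 in Empty vector and rose by 0.34 with an adjusted p-value of 0.0461 (0.0315 to 0.176 without 1 array). *EEF1A2*, the form of eEF1A known from muscle and neurons, read 7.63, 7.08 and 7.43 in USF1 and 6.85, 6.81 and 7.33 in Empty vector. These groups overlapped, and the difference of 0.38 had a 95% confidence interval from -0.02 to 0.78 and an adjusted p-value of 0.176. *EEF1A1*, the common form, which has many near-identical copies in the genome and is therefore uncertain, differed by 0.13 with an adjusted p-value of 0.538. Its probe set averaged only 5.94 in USF1 and 5.81 in Empty vector, close to the medians of the arrays and far below *EEF2*. *EEF1D* averaged 4.25 and 4.21, below those medians, and differed by 0.04, so the signs of these 2 genes rest on dim probe sets. *EEFSEC*, which delivers selenocysteine, differed by 0.02 with an adjusted p-value of 0.906.

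Among the 4 measured enzymes that modify elongation factors, *EEF2K* rose. It read 6.45, 6.04 and 6.26 in USF1 and 5.84, 5.66 and 5.63 in Empty vector, and the groups lay apart. The difference was 0.54 (standard error 0.121, 95% confidence interval 0.27 to 0.82), a fold change of 1.45 with an adjusted p-value of 0.0267. Its other probe set also lay apart, by 0.33, with an adjusted p-value of 0.0925. The call was lost without USF1 replicate 1 or 3 or without Empty vector replicate 2 or 3, with adjusted p-values of 0.0691 to 0.106 and differences of 0.44 to 0.54. The promoter of *EEF2K* (plus strand) has 1 E-box with its centre at -56 bases from the start, at chr16:22206207-22206236, shown with the motif in capitals.
EEF2K: cctgggggcggcCACGTGagcgccacgccg
*EEF1AKMT1*, a lysine methyltransferase of eEF1A, read 6.33, 6.12 and 6.39 in USF1 and 6.22, 5.77 and 5.88 in Empty vector. These groups overlapped, and the difference of 0.33 (standard error 0.133) had an adjusted p-value of 0.136. Without Empty vector replicate 1 it was called, with a difference of 0.46 and an adjusted p-value of 0.0276.

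Leaving out 1 array at a time changed the calls of the members, while the differences of the called members kept their sign. By limma, 0 of the 42 members were called without USF1 replicate 1, USF1 replicate 3, Empty vector replicate 2 or Empty vector replicate 3. In the same order, 8, 8, 10 and 10 of them had an unadjusted p-value under 0.05, against 10 with all arrays. The share of all probe sets under that unadjusted limma threshold is not given here. These counts, and those per role and list, therefore cannot be set against it. Neither a response of the members nor the lack of one can be read from them. Over all probe sets, 466, 369, 574 and 1110 were called in these fits, against 1974 with all arrays. Without Empty vector replicate 1, 6 members were called higher and 0 lower, and 2028 of all 16569 probe sets were called in either direction. Without USF1 replicate 2, 2 members were called higher and 1 lower, and 2222 of all probe sets. The median difference of the 42 members stayed between 0.05 and 0.16.

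**Figure D4:**
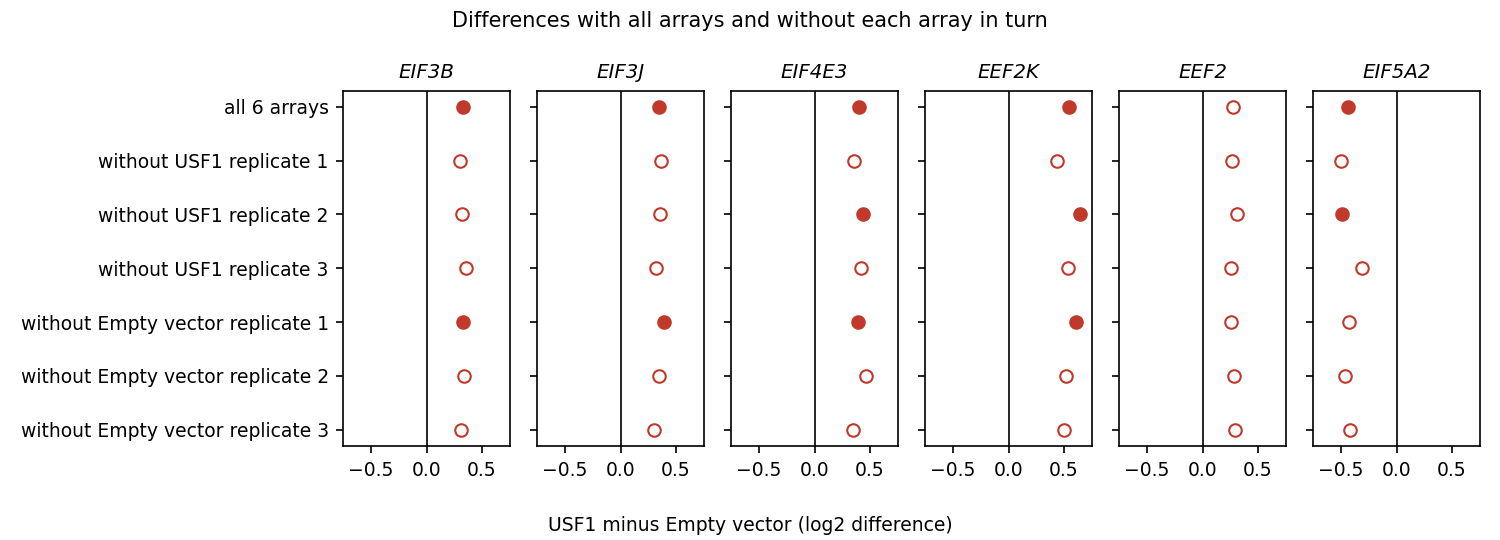
Difference between USF1 and Empty vector on the log2 scale for the 6 members with a called probe set, with all 6 arrays and without each array in turn, for the probe set that stands for the gene. Filled points passed a limma adjusted p-value of 0.05 and open points did not. The points keep their sign in each panel, with *EIF5A2* running from -0.50 to -0.31 and *EEF2K* from 0.44 to 0.64, while most of those without an array are open.

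The promoter table held 39 promoters of 31 members. An exact CACGTG, which reads the same on both strands, stood in promoters of 10 members (32.3%), against 13.4% of the 8067 genes named on the arrays that have a promoter in the table and 8.77% of all 27305 genes in it. Of the 5 called members 2 had it, *EEF2K*, which rose, and *EIF5A2*, which fell. The 10 members with the motif had a median difference of 0.06 and the 21 without it 0.13, with 3 of the 21 called higher. *EIF4B*, which was not called, has an E-box at -19 bases from its start, at chr12:53006422-53006451 on the plus strand, shown for comparison with those of the called genes.
EIF4B: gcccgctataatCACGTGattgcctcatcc
A match describes the letters in this window and is no measure of binding.

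Many mRNAs of the translation machinery begin with a C followed by a run of pyrimidines, the feature through which mTOR controls their translation. A search for transcript starts with at least 5 pyrimidines in a row, the leading base being C, was chosen after the data were seen. It matched 8 members (25.8%), against 7.35% of genes named on the arrays and 5.14% of all genes. They were *EEF1A1*, *EEF2*, *EIF2A*, *EIF2D*, *EIF3D*, *EIF3K*, *EIF3M* and *EIF4B*, their median difference was 0.12 and 0 of them were called. The first 20 bases of 3 of these starts are shown, with the pyrimidine run in capitals. They are those of an elongation factor (chr19:3985444-3985463, minus strand), an eIF3 subunit (chr22:36529147-36529166, minus strand) and a factor that assists the helicase (chr12:53006456-53006475, plus strand).
EEF2: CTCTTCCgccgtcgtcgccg
EIF3D: CTCTTTTCCTggtttctcaa
EIF4B start: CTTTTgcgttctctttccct

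Of 70 further genes of the translation pathway on 7 lists, 57 were measured, and 1 rose and 2 fell. Over all probe sets, 4.32% were called higher and 7.6% lower. The median difference of the 57 genes was -0.11, with 14 above 0 and 43 below. Over all probe sets the median was -0.06, with 39.2% above 0. *MKNK2*, a kinase that phosphorylates eIF4E, read 8.70, 8.49 and 8.70 in USF1 and 8.13, 7.99 and 7.99 in Empty vector and rose by 0.60 (standard error 0.0959, adjusted p-value 0.00962). It was the only gene called of the 9 measured on a list of poly(A) binding and eIF4 regulators. The poly(A) binding proteins *PABPC1* and *PABPC4* were on that list but not measured. *DPH6*, an enzyme that makes the diphthamide of eEF2, fell by 0.54 (standard error 0.103, adjusted p-value 0.017), the only call among 8 genes of hypusine and diphthamide synthesis. Its probe set is dim, with averages of 4.14 in USF1 and 4.69 in Empty vector, below the medians of the arrays. *SEPSECS*, which makes the selenocysteine that *EEFSEC* delivers, fell by 0.79 (standard error 0.166, adjusted p-value 0.0222), the only call among 6 genes of selenocysteine incorporation with all arrays. Its probe set also lay below those medians, with averages of 4.43 in USF1 and 5.23 in Empty vector. *SECISBP2*, the protein that binds the selenocysteine insertion element, read 7.38, 7.43 and 7.25 in USF1 and 6.61, 7.84 and 7.70 in Empty vector. Its difference was -0.03 with an adjusted p-value of 0.954, and without Empty vector replicate 1 it was -0.42 with an adjusted p-value of 0.0302, which is a call. For all 3 genes called with all arrays the groups did not overlap. No gene was called among 12 of TOR signalling to translation, 7 of termination, recycling and rescue, 6 of the exon junction complex and decay, and 9 mitochondrial translation factors, of which 8 lay below 0. At an unadjusted p-value under 0.05 these 4 lists held 2, 2, 1 and 2 genes. Without USF1 replicate 3 none of the 3 calls was kept, and the highest adjusted p-values without an array were 0.0555 for *MKNK2*, 0.0804 for *DPH6* and 0.0903 for *SEPSECS*. The calls of *MKNK2* and *SEPSECS* were also lost without USF1 replicate 1, and those of *DPH6* and *SEPSECS* without Empty vector replicate 2. Without USF1 replicate 2, 5 further genes of these lists were called lower, *ABCF1*, *DDIT4*, *GSPT2*, *DPH3* and *MTRF1L*. That fit called 2222 of all probe sets in either direction, against 1974 with all arrays.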

How the data were processed

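The 6 Affymetrix arrays, 3 of HEK293T cells transfected with USF1 and 3 with the empty vector, had been summarized by the authors with RMA (justRMA in R 2.8.0), a method that removes background and gives all arrays the same distribution. Mis-targeted and nonspecific probes were masked, probe sets with too few probes left or with mostly absent calls were dropped, and ComBat was applied for batch effect. What the batches were is not stated. The deposited values are log2 expression values of 16569 probe sets, and the number of arrays limits their precision.

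Groups and replicate numbers were taken from the sample titles. USF1 minus Empty vector was fitted per probe set with limma 3.58.1 (lmFit and eBayes, without covariates) in R 4.3.3, with Benjamini-Hochberg adjustment over all 16569 probe sets, 33 control probe sets included. A probe set was called at an adjusted p-value under 0.05. Symbols came from the platform annotation, in which 15099 probe sets have 1 symbol, 570 several and 900 none, and a gene was named only from a probe set with 1 symbol. The probe set with the highest mean over 6 arrays stood for a gene. Genes named in the text are the called members, a set of well-known factors, the 5 members nearest to the threshold, members with another called probe set and the called genes of the related lists, and others where they complete a count. The members and lists were chosen with earlier results of these data known. Promoter sequences are those of RefSeq (GRCh38.p14). Alternatives were other tests, priors, scalings, filters and probe sets, the replicate number as a block, and leaving out each array. The procedure was tested on simulated data in which every array had independent noise. That test does not cover arrays that stand apart or share a replicate effect.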

Additional observations from a re-analysis of the deposited data

How the results depend on the processing

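The directions of the 5 called members were the same under all 20 alternatives that gave a value, and their calls were not. Alternatives that changed only the threshold, prior, filter, block or t-test leave a difference as it is, so there the direction was fixed in advance. Counting each called member under each alternative, the call was kept 51 times and lost 18 times with all arrays in use. It was kept 7 times and lost 23 times with an array left out. The kept calls include those at an adjusted p-value under 0.1, which cannot lose a call. The methods' t-test with adjusted p-values called 1 probe set in all with unequal variances and 160 with equal variances, and 0 members higher, 0 lower, 0 per role and 0 related genes. Unadjusted with unequal variances it passed 3419 probe sets, 6 members higher and 1 lower, 0 of eIF5A, and 3 related genes higher and 5 lower. At an adjusted p-value under 0.1, 3756 probe sets and 10 related genes lower were called. Array weights gave 3688 probe sets, 8 members higher (2 of them modifiers of elongation factors) and 10 related genes lower. The intensity trend gave 0 members lower (0 of eIF5A), 2 related genes higher and 5 lower. Centring gave 0 members lower, 0 of eIF5A and 2 related genes higher. Without the lowest 25% of probe sets, among them those of *EIF5A2* and *DPH6*, 0 members lower, 0 of eIF5A and 0 related genes lower were called. The mean of a gene's probe sets gave 0 members lower, 0 of eIF5A and 1 eIF3 subunit, and the probe set with the lowest mean 0 lower, 0 of eIF5A, 1 eIF3 subunit and 0 modifiers of elongation factors. *EEF2* passed the threshold under 6 alternatives, with adjusted p-values of 0.0109 to 0.0483. *EIF4ENIF1* passed it with array weights, centring and further quantile normalization, with limma adjusted p-values of 0.0189, 0.0301 and 0.0266. With array weights *EEF1AKMT1* and *EIF4EBP2* passed as well, at 0.0185 and 0.0419. *EIF5* reversed to -0.18 with array weights, -0.0616 with the mean of its probe sets, -0.0452 with its lowest probe set, -0.03 without USF1 replicate 2 and -0.26 without Empty vector replicate 1, the lowest of its values without an array, which reached 0.36. *EEFSEC* reversed to -0.0682 without USF1 replicate 1 and -0.0087 without Empty vector replicate 3 (highest 0.107 without USF1 replicate 2), and *EIF2AK2* to 0.0346 with its other probe set. The cause of these changes was not tested, and with 3 arrays per group a difference that missed the threshold is not shown to be absent.

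Leaving out each array in turn gave 369 to 2222 called probe sets, 0 to 6 members higher, 0 to 1 lower, 0 to 2 eIF3 subunits, 0 to 1 of cap binding, 0 to 1 of eIF5A, 0 to 2 modifiers, 0 to 1 related genes higher, 0 to 7 lower, and a median of 0.05 to 0.16. The replicate number as a block gave 2875 called probe sets, 4 members higher, 1 lower, 1 related gene higher and 4 lower. Deviations of arrays with the same number correlated at 0.0958, 0.246 and 0.129 over all probe sets, each array most with its own number, which is a hint from the data and not the design.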
